A study of Homo sapiens with 8 samples.

Results

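MIR126, MIR143, MIR199A1, MIR199A2, MIR199B, MIR223 and MIR486 are 7 microRNA (miRNA) genes whose products are typical of endothelium, stroma, myeloid cells or red cells. They were followed here as possible signs of RNA from serum or from other cells in a B-cell culture. Reads of all 7 were also found in the libraries of the B cells themselves. Whether the reads of either group came from serum or from other cells was not tested. The 7 features were picked by symbol, out of 1335 miRNA features and 2709 non-coding RNA features in each table, and all 7 had enough reads to be tested. Small RNA had been sequenced from exosomes, small membrane vesicles pelleted from culture supernatant (n = 5 libraries), and from the parental cells (n = 3 libraries). Cells were harvested alongside 3 of the 5 exosome samples, but the labels do not say which cell library goes with which exosome library. Both groups come from MEC-1, a long-established human line of leukaemic B cells from chronic lymphocytic leukaemia, with no treatment named in the labels. The cells grew in 2-compartment bioreactors in medium with fetal calf serum, which had been depleted of serum exosomes everywhere except in the upper medium compartment. MEC-1 is 1 line, and the labels do not say whether each library had a culture of its own, so the p-values measure only how far these libraries differ, which may be technical.

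A miRNA gene is transcribed into a hairpin that is cut to short mature RNAs from its 5′ (5p) and 3′ (3p) arms, which guide Argonaute proteins to messenger RNAs mainly through the seed, bases 2 to 8 of the mature RNA. miR-126 is the typical miRNA of endothelium and is also abundant in platelets, miR-143 belongs to smooth muscle and stromal cells, and the miR-199 family is typical of fibroblasts and other mesenchymal cells. miR-223 is a miRNA of granulocytes and monocytes, and miR-486 is one of red cells. All of these are commonly detected in serum and plasma.

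The annotated mature products of the vascular, stromal and myeloid genes are shown to tell which of them share sequence, with the seed in capitals. The tables count reads per hairpin gene, so which arm the reads came from was not measured. The sequences are RefSeq entries on GRCh38.p14, found for 6 of the 7 genes, and MIR486 is named only. For MIR199B only the 3p product was found, so its 5p product, miR-199b-5p, is missing from the list.
miR-126-3p of MIR126: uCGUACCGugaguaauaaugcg
miR-126-5p of MIR126: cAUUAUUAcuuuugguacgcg
miR-143-3p of MIR143: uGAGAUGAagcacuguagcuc
miR-143-5p of MIR143: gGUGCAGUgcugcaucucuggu
miR-199a-3p of MIR199A1 and MIR199A2, and miR-199b-3p of MIR199B: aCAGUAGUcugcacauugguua
miR-199a-5p of MIR199A1 and MIR199A2: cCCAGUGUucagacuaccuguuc
miR-223-3p of MIR223: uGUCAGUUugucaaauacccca
miR-223-5p of MIR223: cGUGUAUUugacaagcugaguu
Among the products shown, a seed is shared between genes only within the miR-199 family.

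The 3 miR-199 genes encode the same 3p product, so reads of that arm cannot be told apart by gene. The hairpins are shown with the common 3p arm in capitals.
MIR199A1: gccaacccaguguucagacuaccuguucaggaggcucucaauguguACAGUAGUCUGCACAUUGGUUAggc
MIR199A2: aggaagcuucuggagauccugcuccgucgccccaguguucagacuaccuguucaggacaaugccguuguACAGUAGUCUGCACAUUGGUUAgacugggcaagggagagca
MIR199B: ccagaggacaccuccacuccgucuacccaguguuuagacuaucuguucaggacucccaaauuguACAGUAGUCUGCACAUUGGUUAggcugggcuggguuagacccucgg
The 22-base 3p sequence stands unchanged in all 3 hairpins, and the 23-base miR-199a-5p sequence stands in the hairpins of MIR199A1 and MIR199A2 only. A read of the 3p arm therefore fits 3 loci equally well. The mature sequences of MIR126, MIR143 and MIR223 were found in the hairpin of no other gene in the tables.

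Total counts per library ran from 23353820 to 32436286 for exosomes and from 25675636 to 57323598 for cells. Reads on miRNA features made up 3.10% to 11.5% of exosome and 6.22% to 12.2% of cell counts. Levels are given as CPM, counts per 1000000 counts after scaling each library by its TMM factor, which was lowest in exosome 5 (0.524) and cell 2 (0.552) and between 0.905 and 1.46 elsewhere. Differences are log2 fold changes, exosome over cell, from edgeR's quasi-likelihood test fitted on all 1178 features with enough reads, and a feature was called at a Benjamini-Hochberg adjusted p under 0.05. In such bulk libraries, fewer source cells and less RNA per cell cannot be told apart.

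Of the 7 genes, 3 were higher in exosomes, MIR143, MIR126 and MIR199B, none was lower, and 4 were not called. Over all features 20.7% were called higher and 22.3% lower, and among the 333 tested miRNA features 12.3% were called higher. With miRNA features fitted alone, 36 of 365 were higher and 13 lower. In the fit on all 1178 features, 41 of the 333 tested miRNA features were higher, and over all features 244 were higher and 263 lower. Scaling by total counts or by the upper quartile moved the median of all tested features up by 0.28 and 0.34 on the log2 scale, and MIR126 and MIR143 were called under both. The median log2 fold change was 1.92 for the 7 genes, -0.09 for all tested features and 0.01 for tested miRNA features. MIR199A1 and MIR199A2, which had equal counts in 7 of 8 libraries, were higher at an unadjusted edgeR p of 0.0423 and 0.0406 without being called. At an adjusted p under 0.05, DESeq2 called 5 of the genes higher and 0 lower, and 294 of all 1178 features higher. Limma-voom called 3 of the genes higher and 0 lower, and 230 of all 1178 features higher. The groups did not overlap for 2 of the 7, MIR126 and MIR143, and the same held for 13.2% of tested miRNA features. Because MIR199A1, MIR199A2 and MIR199B share their 3p product, the 7 genes are not 7 separate measurements.

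**Figure D1:**
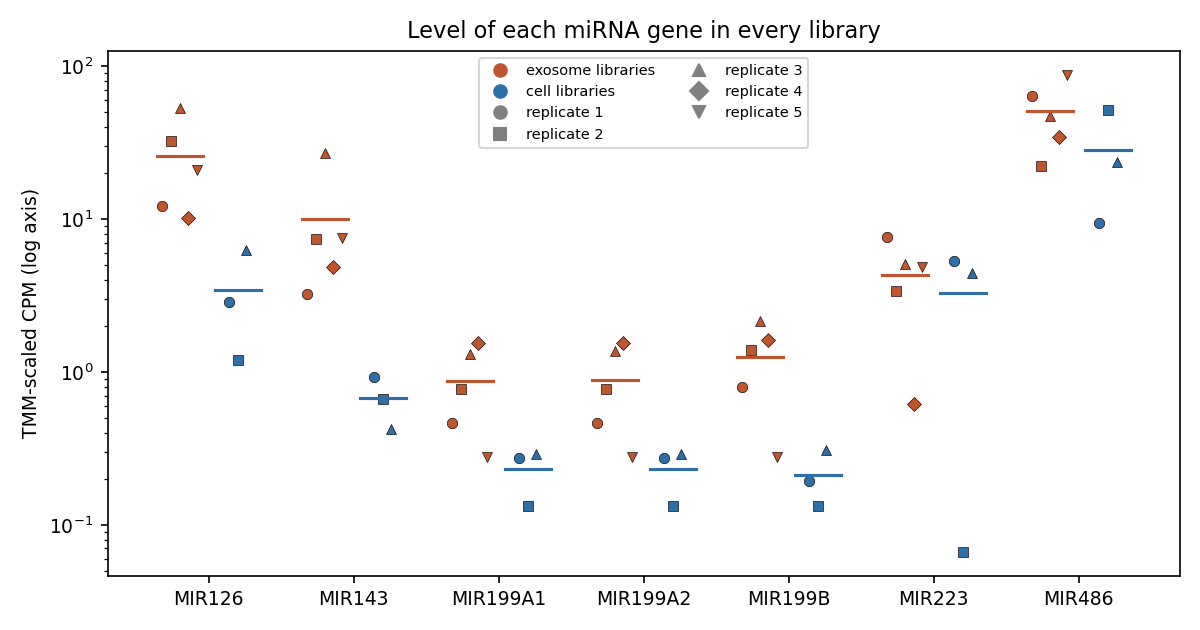
TMM-scaled CPM (log axis) of the 7 miRNA genes in each of the 5 exosome and 3 cell libraries; marker shape gives the replicate number and horizontal lines the group means. All exosome points of MIR126 and MIR143 lie above all cell points, while the points of the other 5 genes overlap, and MIR223 in cell 2 stands alone near 0.07 CPM.

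MIR126, the endothelial and platelet miRNA, was higher in every exosome library than in any cell library. The gene lies on chromosome 9, 139565054 to 139565138 on the plus strand (GRCh37), and GENCODE 29 places it within introns of EGFL7, a gene for a protein secreted by endothelial cells. It reached 12.2, 32.6, 53.7, 10.1 and 21.0 CPM in exosomes 1 to 5 and 2.88, 1.20 and 6.30 CPM in cells 1 to 3. Exosome 3 was the highest library and exosome 4 the lowest of its group, still above cell 3, the highest cell library. The means were 26.0 ± 17.9 CPM (SD, n = 5) and 3.46 ± 2.60 CPM (SD, n = 3), a 7.47-fold difference (log2 2.90, SE 0.75, edgeR adjusted p = 0.00538). The log2 value was 3.95 without cell 3, a library with 327 reads of MIR126 against 36 in cell 2.

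MIR143, the smooth-muscle and stromal miRNA, had the largest fitted rise of the 7 genes. It lies on chromosome 5, 148808481 to 148808586 on the plus strand (GRCh37), and overlaps an exon of the long non-coding RNA CARMN in GENCODE 29. Its levels were 3.22, 7.39, 26.9, 4.84 and 7.55 CPM in exosomes 1 to 5 and 0.933, 0.665 and 0.424 CPM in cells 1 to 3. Exosome 3, with 1228 reads, stood above the other exosome libraries (105 to 259 reads), and the cell libraries held only 20 to 34 reads. The means were 9.98 ± 9.63 CPM (SD, n = 5) against 0.674 ± 0.255 CPM (SD, n = 3), a 14.8-fold difference (log2 3.89, SE 0.80, edgeR adjusted p = 0.00128). Without exosome 3 the log2 value was 3.44 (edgeR adjusted p = 0.000998).

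The miR-199 genes were low in all libraries and only MIR199B reached the threshold in edgeR's test on all 8 libraries. MIR199A2 lies on chromosome 1, 172113675 to 172113784, within DNM3 and over an exon of the antisense RNA DNM3OS. MIR199A1 lies on chromosome 19, 10928102 to 10928172, within introns of DNM2, and MIR199B on chromosome 9, 131007000 to 131007109, within introns of DNM1 (coordinates GRCh37, all on the minus strand, opposite to the dynamin genes DNM1, DNM2 and DNM3; overlaps from GENCODE 29). MIR199A1 had 15, 27, 60, 53 and 4 reads in exosomes 1 to 5 and 10, 4 and 15 reads in cells 1 to 3. MIR199A2 had the same count as MIR199A1 in 7 of 8 libraries, and 63 reads against 60 in exosome 3. MIR199B had 26, 49, 98, 55 and 4 reads in exosomes and 7, 4 and 16 in cells, above MIR199A1 in 5 libraries, equal in 2 and below it in 1.

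In CPM, MIR199B stood at 0.798, 1.40, 2.15, 1.61 and 0.280 in exosomes 1 to 5 and at 0.192, 0.133 and 0.308 in cells 1 to 3. Exosome 5 lay below cell 3, so the groups overlapped. The means were 1.25 ± 0.725 CPM (SD, n = 5) and 0.211 ± 0.0892 CPM (SD, n = 3), a 5.81-fold difference (log2 2.54, SE 0.86, edgeR adjusted p = 0.0256). The call was lost without cell 1 (log2 2.37, edgeR adjusted p = 0.098), without cell 2 (log2 2.27, edgeR adjusted p = 0.0845) or with miRNA features fitted alone (log2 2.82, edgeR adjusted p = 0.0602), and the value was 3.23 without cell 3.

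MIR199A1 (0.876 ± 0.546 against 0.232 ± 0.0861 CPM, log2 1.90, SE 0.86, edgeR adjusted p = 0.0861) and MIR199A2 (log2 1.92, edgeR adjusted p = 0.0834) were not called. Leaving out exosome 5 brought both under the threshold (edgeR adjusted p = 0.0362 and 0.0347), and DESeq2 called both (adjusted p = 0.0397 and 0.0377). MIR199A2 was also called without large rRNA features (edgeR adjusted p = 0.0494). Exosome 5 rests on 4 reads of each miR-199 gene, for which the exact 95% Poisson interval runs from 1.09 to 10.2 reads. The libraries carry no molecular identifiers, so such intervals cover counting error only.

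MIR223, the granulocyte and monocyte miRNA, was not called in either direction. It lies on chromosome X, 65238712 to 65238821 on the plus strand (GRCh37), over an exon of the non-coding gene AL034397.3 in GENCODE 29. It measured 7.64, 3.37, 5.08, 0.616 and 4.89 CPM in exosomes 1 to 5 and 5.32, 0.0665 and 4.41 CPM in cells 1 to 3. Cells 1 and 3 lay within the range of the exosome libraries, whereas cell 2 had 2 reads (exact 95% Poisson interval 0.242 to 7.22) against 194 and 229 in the other cell libraries. The means were 4.32 ± 2.58 CPM (SD, n = 5) and 3.27 ± 2.81 CPM (SD, n = 3), with a log2 fold change of 0.40 (SE 0.90, edgeR adjusted p = 0.754). Without cell 2 the sign turned, to a log2 fold change of -0.30 (edgeR adjusted p = 0.772).

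MIR486, the red-cell miRNA, had the highest level per length of the 7 genes in both groups. The tables place it on chromosome 8, 41517959 to 41518026 on the plus strand (GRCh37). GENCODE 29 lists MIR486-1 and MIR486-2 as overlapping genes on opposite strands, and whether the counting used strand is not given in the sources used here, so their reads cannot be told apart. MIR486 measured 64.0, 22.4, 47.2, 34.6 and 88.3 CPM in exosomes 1 to 5 and 9.47, 51.7 and 23.7 CPM in cells 1 to 3. Cell 2, lowest of all libraries for MIR126 and MIR223, was the highest cell library here and lay above 3 of the 5 exosome libraries. The means were 51.3 ± 25.8 CPM (SD, n = 5) and 28.3 ± 21.5 CPM (SD, n = 3), with a log2 fold change of 0.86 (SE 0.64, edgeR adjusted p = 0.299). The log2 value was 0.35 without cell 1 (edgeR adjusted p = 0.712) and 1.53 without cell 2 (edgeR adjusted p = 0.081).

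**Figure D2:**
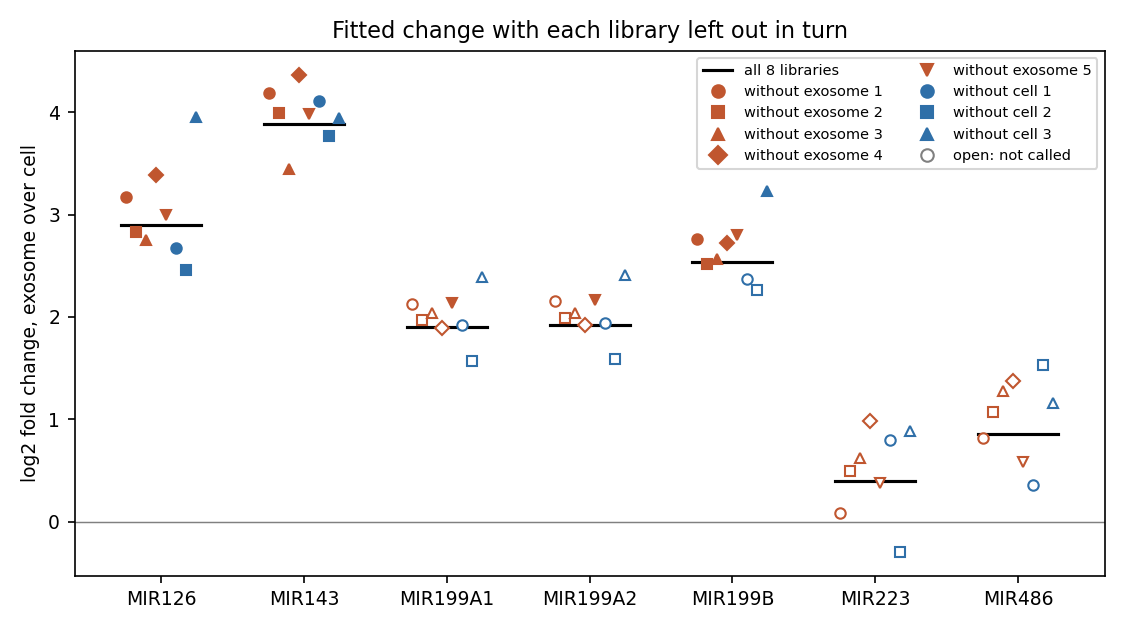
Log2 fold change, exosome over cell, of each gene with all 8 libraries (black line) and with 1 library left out in turn (points; filled where called at an adjusted p under 0.05). MIR126 and MIR143 are called in every case, MIR199B loses its call without cell 1 or cell 2, and MIR223 falls below 0 without cell 2.

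That MIR126, MIR143 and MIR199B were called and MIR223 and MIR486 were not does not show that their changes differed. The ratio of 2 genes within a library does not depend on scaling, and 10 ratios among MIR126, MIR143, MIR199A1, MIR223 and MIR486 were compared. The lowest p of an exact permutation test, two-sided, was 0.107 (adjusted p = 0.536 over the 10 ratios), where 5 against 3 libraries allow 0.0357 at best. A single ratio at that floor has an adjusted p of 0.357, and 8 of the 10 would have to reach it to pass, so this comparison has little power either way. MIR143 reached 0.0504 to 0.570 reads per read of MIR486 in exosomes (median 0.140) and 0.0129 to 0.0986 in cells (median 0.0179), a difference of 2.50 on the log2 scale with that p. MIR126 had more reads than MIR143 in every library, a median of 2.79 times as many in exosomes and 3.09 times in cells (exact permutation p = 0.607, adjusted p = 0.759).

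Set against miRNA reads alone, the 7 genes together took 1062, 2403, 3350, 696 and 1287 reads per 1000000 miRNA reads (miRNA RPM) in exosomes 1 to 5 and 225, 479 and 484 in cells 1 to 3. They thus made up 0.0696% to 0.335% of exosome miRNA reads and 0.0225% to 0.0484% of cell miRNA reads. These sums are given without a test, and reads that fit several miR-199 genes may enter them more than once. Exosomes 2 and 3 had the highest sums. MIR126 took 1142 and 1306 miRNA RPM there, against 129 to 221 in the other exosome libraries, and exosome 3 was also the highest for MIR143 (655) and MIR486 (1148). In cells MIR486 was the largest single contributor, at 110, 458 and 321 miRNA RPM in cells 1 to 3.

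**Figure D3:**
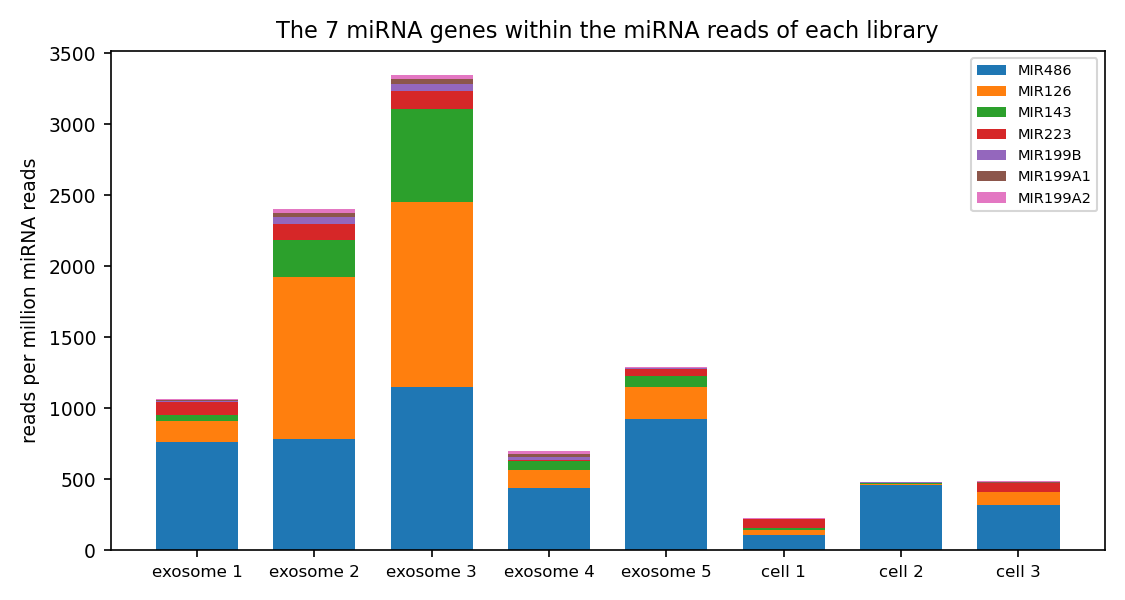
Reads of the 7 genes (stacked bars from 0), in miRNA RPM, in each library. The exosome bars run from 696 to 3350 and the cell bars from 225 to 484, with MIR126 forming a large part of the bars of exosomes 2 and 3.

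To order the genes, CPM was divided by the length of the annotated hairpin, 68 to 110 nt. Reads of the short mature RNAs need not grow in number with that length, so the order and ranks depend on the annotation. MIR199A1 (71 nt) and MIR199A2 (110 nt), with nearly the same counts, came out at 1.23 and 0.808 CPM per 100 nt in exosomes. In exosomes the order was MIR486 (75.4 ± 37.9 CPM per 100 nt, SD, n = 5), MIR126 (30.5 ± 21.0), MIR143 (9.42 ± 9.09), MIR223 (3.93 ± 2.34) and the miR-199 genes (0.808 to 1.23). The ranges of each neighbouring pair overlapped among libraries. In cells MIR223 (2.97 ± 2.55, SD, n = 3) came before MIR143 (0.636 ± 0.240), with MIR486 (41.6 ± 31.6) and MIR126 (4.07 ± 3.06) again ahead. The lowest cell value of MIR486 (13.9) lay above the highest of MIR126 (7.41), while MIR126 and MIR223 overlapped, as did MIR223 and MIR143. Among 1335 miRNA features ranked by their share per length, MIR126 stood at place 66 in exosomes and 137 in cells, MIR143 at 104 and 254, MIR223 at 141 and 157, and MIR486 at 56 and 72.

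**Figure D4:**
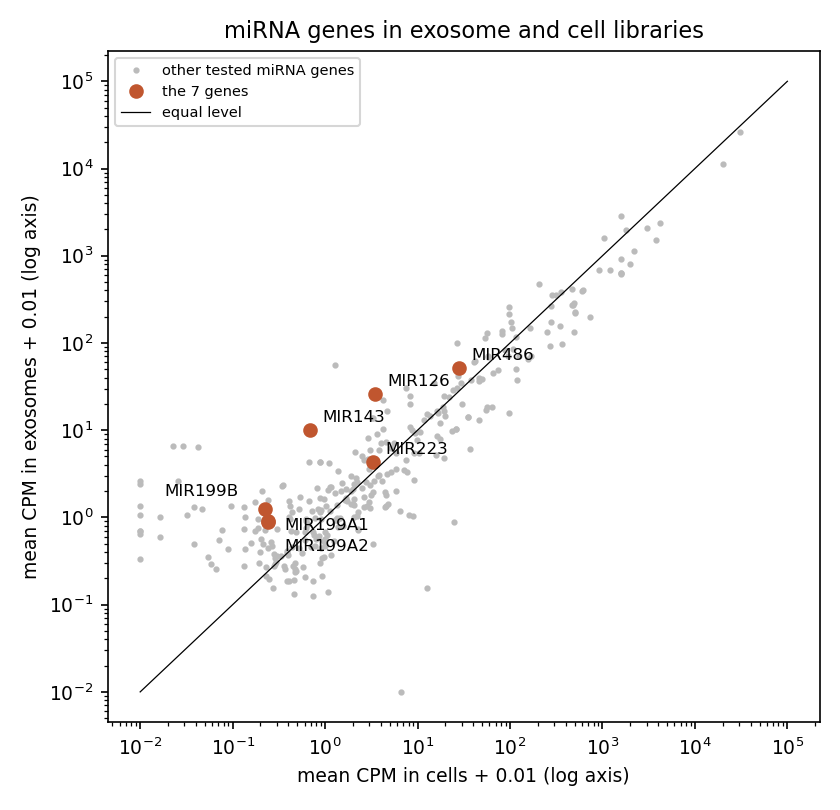
Mean CPM in exosomes against mean CPM in cells (both log axes, 0.01 added) for the 333 tested miRNA genes, with the 7 genes in colour and a line of equal level. MIR143 and MIR126 lie farthest above the line among the 7, and MIR223 and MIR486 lie near it.

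Other miRNAs of vessels and stroma were compared in the same way. The list held MIR221 and MIR222, abundant in endothelium, MIR214, which shares the DNM3OS transcript with MIR199A2, MIR10B, MIR100, MIR99A, MIR125B1 and MIR125B2. Among the 7 that were tested, only 1 was called, upwards, a share near the 12.3% of all tested miRNA features, and their median log2 fold change was 0.03 (DESeq2 called 2 upwards and limma-voom 1). The riser was MIR100, at 1.48 ± 0.927 CPM (SD, n = 5) in exosomes and 0.163 ± 0.134 CPM (SD, n = 3) in cells, and above the cell level in 5 of 5 exosome libraries (log2 3.13, SE 0.95, edgeR adjusted p = 0.0139). Its call was lost without cell 2, which had 1 read (log2 2.55, edgeR adjusted p = 0.0581). MIR221 was at 1.22 (SE 0.59, edgeR adjusted p = 0.106). It was called without cell 3 (log2 2.05, edgeR adjusted p = 0.0332) and with a filter of at least 50 counts in 3 libraries (edgeR adjusted p = 0.0314). Upper-quartile scaling (edgeR adjusted p = 0.0495) and DESeq2 (adjusted p = 0.0453) also called it. The other 5 lay between -0.15 and 0.29. MIR214 had too few reads to be tested, with 0 to 10 in exosome and 1 to 5 in cell libraries. MIR145, the neighbour of MIR143, and the red-cell genes MIR451A and MIR144 were not analysed here.

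Of 10 miRNAs that B cells and blood cells in general carry, 5 were measured. All but MIR150 are broadly expressed and MIR142 and MIR155 were not analysed here, so these values do not check the identity of the cells. None was called with all 8 libraries (edgeR, 0 at an unadjusted p under 0.05; DESeq2 and limma-voom also called 0, with 1 at an unadjusted p under 0.05 in DESeq2). MIR21, a broadly expressed miRNA raised in many leukaemias, averaged 11172 ± 4401 CPM (SD, n = 5) in exosomes and 20178 ± 7015 CPM (SD, n = 3) in cells (log2 -0.85). MIR181A1 was at 0.32, and MIR16-2 and MIR16-1, which encode the same main product, at -0.88 and 0.26. MIR150, a miRNA of mature lymphocytes named after its values were seen, was at 1.58 (SE 0.83, edgeR adjusted p = 0.137). MIR150 was called without cell 3 (log2 3.12, edgeR adjusted p = 0.0294), without exosome 3 (log2 2.09, edgeR adjusted p = 0.0471) and with no low-count filter (log2 1.71, edgeR adjusted p = 0.0362). MIR16-2 was called lower without cell 2 (log2 -1.34, edgeR adjusted p = 0.0457). MIR21 alone took 100934 to 239133 miRNA RPM in exosomes and 113939 to 312307 in cells, whereas MIR150 took 63.9 to 748 and 21.3 to 244.

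MIR122, the main miRNA of hepatocytes, was also higher in every exosome library than in any cell library. It measured 19.9, 35.3, 114, 37.5 and 70.1 CPM in exosomes 1 to 5 and 1.34, 2.00 and 0.424 CPM in cells, with exosome 3 the highest as for MIR126 and MIR143 (log2 5.47, SE 0.85, edgeR adjusted p = 0.000193). The tables count reads against the human genome, and the part of serum RNA in any of these levels was not tested.

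**Figure D5:**
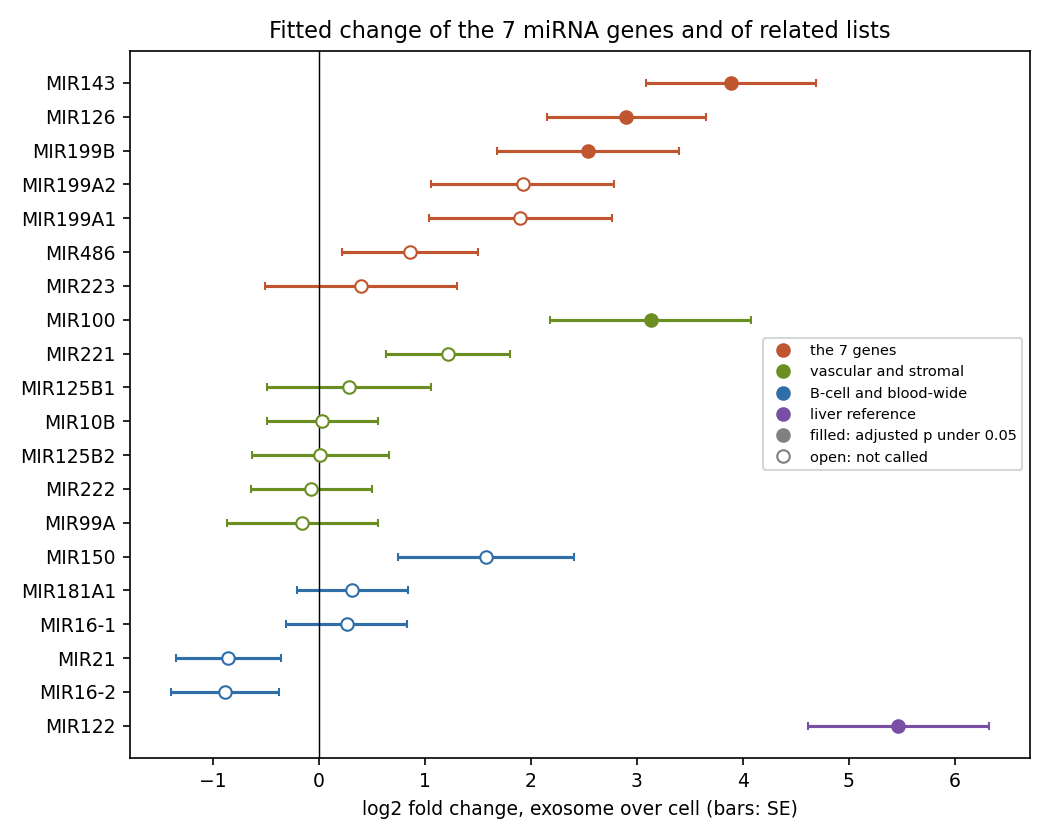
Log2 fold change, exosome over cell, with its SE for the 7 genes, the related vascular and stromal list, the B-cell and blood-wide list and MIR122; filled points were called at an adjusted p under 0.05. The called genes are MIR143, MIR126, MIR199B, MIR100 and MIR122, and the B-cell and blood-wide points lie between -0.88 and 1.58.

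Features with the most similar profile were sought among 1124 others, 305 of them miRNAs, by the mean absolute difference of log2 CPM over the 8 libraries after centring each on its own mean. Profiles over the same 8 libraries share the scaling and the 2 groups, so likeness is a description. The nearest to MIR143 were MIR411 (0.39 log2 units apart), SNORA81 (0.57) and MIR493 (0.59). MIR411 and MIR493, both of the imprinted cluster on chromosome 14, had 118 and 203 reads over the exosome libraries and 0 reads in every cell library, where a count of 0 allows up to 3 reads. Their fitted log2 fold changes, 7.51 and 8.23, were well above the 3.89 of MIR143. The log2 CPM used here adds a prior count of 1, which shrinks differences at such low counts, so their nearness does not mean an equal change. MIR126 was nearest to a feature listed only as 21183 (0.49), to the mitochondrial rRNA MT-RNR2 (0.53) and to MIR100 (0.57). MIR199A1 was nearest to MIR23B (0.33), and MIR199B to a feature listed only as 21177 (0.42). MIR486 was nearest to MIR3940 (0.39), MIR378F (0.42) and MIR197 (0.47). MIR223 had no close neighbour, with MIR4751 the nearest at 0.83.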

How the data were processed

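Per the submitters' processing notes, the authors used cutadapt 1.1, STAR, featureCounts and DESeq2 1.8.2 with GRCh37 (hg19, hs37d5). Each deposited table holds unnormalized counts of reads, 1 per non-coding RNA feature, per the file headers. How strand and reads fitting several loci were treated is not given in the sources used here, and this bears on the miR-199 genes and MIR486. MIR199A1 and MIR199A2 had equal counts in 7 of 8 libraries, so the same reads may have been counted at both.

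The quasi-likelihood test of edgeR 4.0.16 (R 4.3.3) set exosome (n = 5) against cell (n = 3) libraries, using TMM factors, the default low-count filter (minimum 10 counts) and Benjamini-Hochberg adjustment over 1178 features. The SE is the log2 fold change over the square root of F. Alternatives were DESeq2 1.42.0, limma 3.58.1 (voom), other scalings, filters and feature sets, each library left out, and a replicate block. Library pairs within a group differed by far more than sampling noise (chi-square per degree of freedom of at least 1801). Members and lists were chosen with earlier results of these data known; named were the 7 genes, the related lists and the 3 features nearest in profile to each member. Sequences are from RefSeq (GRCh38.p14).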

Additional observations from a re-analysis of the deposited data

Results flagged for a closer look

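MIR143 in exosome 3 stood apart from the other exosome libraries, at 26.9 CPM against 3.22 to 7.55 CPM. The gap to the next library was 0.817 of the whole range of the group, above Dixon's limit of 0.71 for 5 libraries. The rule was applied to CPM only, and the flag depends on that scale. As log2 deviations from the exosome mean, exosome 3 stood at 1.84 and the others at -1.21 to 0.012, a less extreme gap. All 7 genes were examined in this way in the exosome group, and chance alone sets apart about 1 in 20 such groups if values are normally distributed.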

How the results depend on the processing

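MIR126 and MIR143 kept their direction and call in all 19 alternatives (log2 2.46 to 3.95 and 3.44 to 4.37). The 7 genes gave 5 calls with DESeq2, which called 294 of all 1178 features higher, against 244 in the main fit. With a library left out the 7 genes gave 2 to 5 calls. The 5 calls came without exosome 5, where 230 of 1158 features were higher. The 2 calls came without cell 1 (179 of 1278 features higher) or without cell 2 (203 of 1256). The most features called higher were 272 of 1130, without exosome 3, where 3 of the 7 genes were called. With miRNA features alone, which changes both the scaling and the features tested (365), 36 were higher and 13 lower. With libraries 1 to 3 and the replicate number as a block, 162 features were higher and 171 lower (181 and 217 on the same libraries without the block), and 3 of the 7 genes were called either way; same-numbered libraries deviated together only weakly (r of 0.10, -0.03 and 0.06), so the numbers were not taken as the pairs that the design mentions. Signs turned only for genes that were never called. With libraries left out, MIR223 ran from -0.30 to 0.98, MIR222 from -0.41 to 0.51, MIR10B from -0.31 to 0.55, MIR99A from -0.57 to 0.76, MIR125B1 from -0.17 to 0.88, MIR125B2 from -0.24 to 0.55, MIR16-1 from -0.25 to 1.02 and MIR181A1 from -0.15 to 0.95. MIR222 (-0.07) was 0.35 with total counts, 0.28 with upper-quartile scaling, 0.17 with no filter, 0.35 at 50 counts in 3 libraries, 0.26 without large rRNA and 0.018 with near-identical features counted once. MIR99A (-0.15) was 0.058 with upper-quartile scaling, 0.11 with no filter, 0.22 at 50 counts, 0.19 with miRNAs alone, 0.11 without large rRNA and 0.0065 under the block. Limma-voom gave -0.0069 for MIR125B1 and -0.11 for MIR125B2. The block gave -0.045 for MIR10B and -0.054 for MIR125B2, which was -0.0094 on these libraries without it. The causes were not tested. The nearest features changed with scaling by miRNA reads: 1 of 3 was shared for MIR126 and MIR199A1 and 0 for MIR199B. Depth limits the miR-199 genes (4 to 98 reads) and MIR143 in cells (20 to 34 reads).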
